A study of Mus musculus with 18 samples.

Results

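AP-1 is a dimeric transcription factor built from proteins of the Fos and Jun families, and the 7 genes that encode these subunits were examined in mouse hippocampus after rotation. The genes are Fos, Fosb, Fosl1, Fosl2, Jun, Junb and Jund. They were chosen by symbol, and all 7 were found among the 22063 genes of the deposited count table. RNA had been sequenced from 18 hippocampus samples, and per the series design text the tissue was taken directly after the rotation.

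The D-V group (n = 5) was turned in both directions with vision blocked, a condition the labels name the Coriolis illusion. The D+V group (n = 5) was turned in both directions with vision free. The S-V group (n = 5) was turned in one direction with vision blocked, and the Control group (n = 3) is labelled blank control. No genotype, drug or allele is named for any group. The sources used here do not give strain, age, sex or the length and speed of the rotation. The labels do not say whether the controls were restrained or handled like the rotated mice, nor that each sample came from a separate animal, so every p-value measures only how far these samples differ from each other, which may be technical.

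Fos proteins cannot form stable pairs with each other and bind DNA only with a partner such as a Jun protein, whereas Jun proteins also pair among themselves. The classical AP-1 site reads TGANTCA. In hippocampal neurons, synaptic activity and calcium entry induce Fos, Fosb and Junb within minutes as immediate early genes, through the factors CREB and SRF at their promoters, and their mRNAs decay quickly. Jund is the broadly expressed member that cells carry without stimulation, and the combination of subunits sets which genes a dimer binds and how strongly it activates them.

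The promoters of the activity-induced members Fos, Fosb and Junb and of Jun are shown because those of Fos and Junb, the pair that varied together below, can be read side by side. Each stretch holds the 150 bases before the RefSeq transcription start in the GRCm38.p6 assembly, on the gene's own strand. The coordinates are chr12:85473740-85473889 (plus strand) for Fos, chr7:19310046-19310195 (minus) for Fosb, chr8:84978749-84978898 (minus) for Junb and chr4:95052223-95052372 (minus) for Jun. Capitals mark TGACG, the core of the cAMP response element to which CREB binds, and in Jun the AP-1-like site TGACATCA.
Fos: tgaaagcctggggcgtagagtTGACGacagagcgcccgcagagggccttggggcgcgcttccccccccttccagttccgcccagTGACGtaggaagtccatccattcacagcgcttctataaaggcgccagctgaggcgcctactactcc
Fosb: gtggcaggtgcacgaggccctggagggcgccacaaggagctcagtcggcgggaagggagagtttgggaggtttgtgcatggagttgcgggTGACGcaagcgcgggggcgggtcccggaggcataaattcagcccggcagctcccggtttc
Junb: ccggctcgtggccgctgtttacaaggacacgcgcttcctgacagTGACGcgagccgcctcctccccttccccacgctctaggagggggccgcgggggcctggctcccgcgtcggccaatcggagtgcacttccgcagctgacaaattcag
Jun: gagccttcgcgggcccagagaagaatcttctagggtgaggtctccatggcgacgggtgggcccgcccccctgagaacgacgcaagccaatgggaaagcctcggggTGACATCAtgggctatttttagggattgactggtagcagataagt
In the 250 bases before the start, searched on both strands, TGACG began at positions −129 and −66 in Fos, at −60 in Fosb and at −106 in Junb. It occurred in 17.8% of 32851 mouse promoter windows of that length. TGACATCA began at −45 in Jun and occurred in 2.93% of windows. The full element TGACGTCA (1.55% of windows), TGANTCA (6.75%) and the CArG box of SRF (1.47%) were found in no member within these 250 bases. Bases farther upstream were not searched, so a missing match does not concern sites there. The table matched 6 of 7 members, all but Fosl1, and TGACGTCA holds TGACG within it. For Jund and Fosl2 the RefSeq start lies 1210 bases before and 671 bases after the GENCODE start, so a missing match for them concerns those windows alone. A match describes the letters of the window, not binding.

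Transcript levels were given as CPM, the counts of a gene per 1000000 counts of its library, with library sizes adjusted by the TMM method. The libraries held 15031084 to 25313119 counts, with mitochondrial genes at 7.02 to 9.38%. All 10 hippocampal neuron markers were detected, with summed levels of 972 to 1108 CPM in D-V, 970 to 1190 in D+V, 953 to 1169 in S-V and 908 to 1273 in Control libraries. Markers of other tissue varied between libraries. Ttr, a choroid plexus transcript, was at 3525 to 10000 CPM in 5 libraries (D-V replicates 3 and 4, D+V replicate 2, S-V replicates 2 and 4) and at 35.6 to 1120 CPM in the other 13. The 10 thalamus and habenula markers summed to 58.9 to 83.4 CPM in D-V, 55.0 to 96.5 in D+V, 72.0 to 86.8 in S-V and 85.5 to 121 in Control. The 6 red blood cell markers summed to 917 to 1749 CPM in D-V, 386 to 3208 in D+V, 602 to 1001 in S-V and 479.5 to 640 in Control. The 8 astrocyte markers summed to 3947 to 4743 CPM in D-V, 4416 to 5833 in D+V, 4188 to 4986 in S-V and 4199 to 4676 in Control. The 12 endothelium and pericyte markers summed to 350 to 372 CPM in D-V, 279 to 368 in D+V, 345 to 363 in S-V and 350 to 388 in Control. None of these markers was at 0 throughout, and their part in the member values was not tested, apart from the values without the Ttr-rich libraries given below. In such bulk tissue, fewer cells of a type and less RNA per cell cannot be told apart.

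Divided by transcript length, to compare genes with each other, the AP-1 pool of the hippocampus was mostly Jun family RNA. Jund was highest at 82.5 ± 10.1 CPM per kb (SD, n = 18 libraries) and made up 47.1% of the summed level of the 7 genes. Jun followed at 40.8 ± 3.29 CPM per kb (23.4% of the sum), and Junb at 35.8 ± 5.68 (20.5%). The Fos family was far lower per length. Fos was at 7.06 ± 1.89 CPM per kb (4.04%), Fosl2 at 6.62 ± 0.965 (3.83%) and Fosb at 1.96 ± 0.338 (1.12%). Jund lay above Jun, Junb above Fos, and Fosl2 above Fosb in 18 of 18 libraries. Jun exceeded Junb in 15 of 18 libraries, and Fos exceeded Fosl2 in 12 of 18, so neither of these neighbours was ordered the same way throughout. The Fos family share of the pool was 8.11 ± 1.18% in D-V, 8.96 ± 1.18% in D+V, 10.1 ± 1.71% in S-V (SD, n = 5 each) and 8.74 ± 0.424% in Control (SD, n = 3), and these ranges overlapped.

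Fos, the prototype member and a standard marker of recent neuronal activity, was at 10.2, 11.8, 13.7, 9.99 and 22.2 CPM in the D-V libraries. It was at 13.4, 17.2, 10.7, 11.2 and 10.1 CPM in the D+V libraries, at 15.4, 17.3, 15.2, 23.7 and 17.3 in the S-V libraries, and at 15.1, 17.6 and 16.2 in the Control libraries. In D-V and in D+V, 4 libraries lay below all 3 controls, while D-V replicate 5 lay above them and S-V replicate 4 was the highest of all. How many of all genes had 4 of 5 libraries below the controls was not counted. All 5 were below for 2.37% of genes in D-V and 3.96% in D+V. Group means were 13.6 ± 5.04 CPM in D-V, 12.5 ± 2.90 in D+V and 17.8 ± 3.45 in S-V (SD, n = 5 each), and 16.3 ± 1.26 in Control (SD, n = 3). A mean of 285 counts a library gives Fos a counting error of 5.92%, while its SD was 37.1% of the mean in D-V, 23.2% in D+V, 19.4% in S-V and 7.72% in Control.

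Fosb, whose splice form ΔFosB is stable as a protein and accumulates after repeated stimulation, was at 6.22 to 9.60 CPM in D-V, 5.63 to 7.94 in D+V, 6.54 to 9.88 in S-V and 6.03 to 9.28 in Control. Its splice forms were not separated in these counts per gene. Fosl2, which encodes Fra-2, was at 35.8 to 49.4 CPM in D-V, 34.7 to 54.3 in D+V, 34.8 to 53.2 in S-V and 41.1 to 43.3 in Control. The 3 controls lay inside the range of each rotated group for this gene. Fosl1, which encodes Fra-1, was close to the limit of detection, with 0 counts in 12 of 18 libraries. It had 0 counts in all 5 D-V libraries, at most 1.1 in D+V, at most 2.17 in S-V, and 2.1, 1.05 and 3.18 in Control. A count of 0 allows up to 0.14 to 0.195 CPM in the D-V libraries, a limit of 3 counts that covers counting error only. In CPM, all D-V and all D+V libraries were below all controls, an order that rests on control counts of at most 3.18. Of the genes kept by a filter on low counts, which Fosl1 did not pass, 2.37% and 3.96% showed that order. Without that filter Fosl1 entered the fit and was not called. It had an unadjusted edgeR p under 0.05 in D-V, in D+V and in the rotated groups averaged, each against Control. So had 1006, 2759 and 2100 of 18302 genes, in that order. No fold is given for Fosl1, since no group exceeded a few reads and its gene shares 2767 bases with Ccdc85b on the other strand.

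Jun, the first known Jun protein and the strongest activator among them, was at 141, 136, 117, 137 and 128 CPM in the D-V libraries. It was at 121, 112, 124, 116 and 132 CPM in the D+V libraries, 135, 142, 137, 118 and 147 in the S-V libraries, and 131, 143 and 126 in the Control libraries. In D+V, 4 of 5 libraries lay below all 3 controls, and the D-V and S-V ranges overlapped that of the controls. Junb, an early gene whose protein is a weaker activator than Jun and can oppose it, was at 52.9, 59.9, 63.5, 64.0 and 83.5 CPM in D-V, and at 56.2, 62.2, 51.6, 52.6 and 56.2 CPM in D+V. It was at 66.3, 61.9, 78.9, 66.5 and 82.8 CPM in S-V, and at 58.2, 71.6 and 78.1 in Control. For Junb, 4 of 5 D+V libraries were below all controls, and 4 of 5 were below all S-V libraries. The share of all genes with 4 of 5 libraries below was not worked out. With all 5 D+V libraries below all controls it was 3.96%. A short stretch of 351 bases of Junb overlaps Prdx2 on the opposite strand, and the sources used here do not say whether counting used strand.

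Jund was at 129, 153, 146, 167 and 159 CPM in the D-V libraries. It was at 121, 137, 147, 109 and 139 CPM in the D+V libraries, 120, 114, 128, 128.5 and 128 in the S-V libraries, and 163, 147 and 141 in the Control libraries. All 5 S-V libraries lay below all 3 controls, as was so for 5.74% of all genes tested, and below all 5 D-V libraries, as for 1.15%. D-V and Control overlapped. Jund has the highest transcript GC content of the family at 67.2% (Fos, the lowest, has 51.9%), and antisense transcripts overlap both Jund and Jun in the GENCODE annotation.

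**Figure D1:**
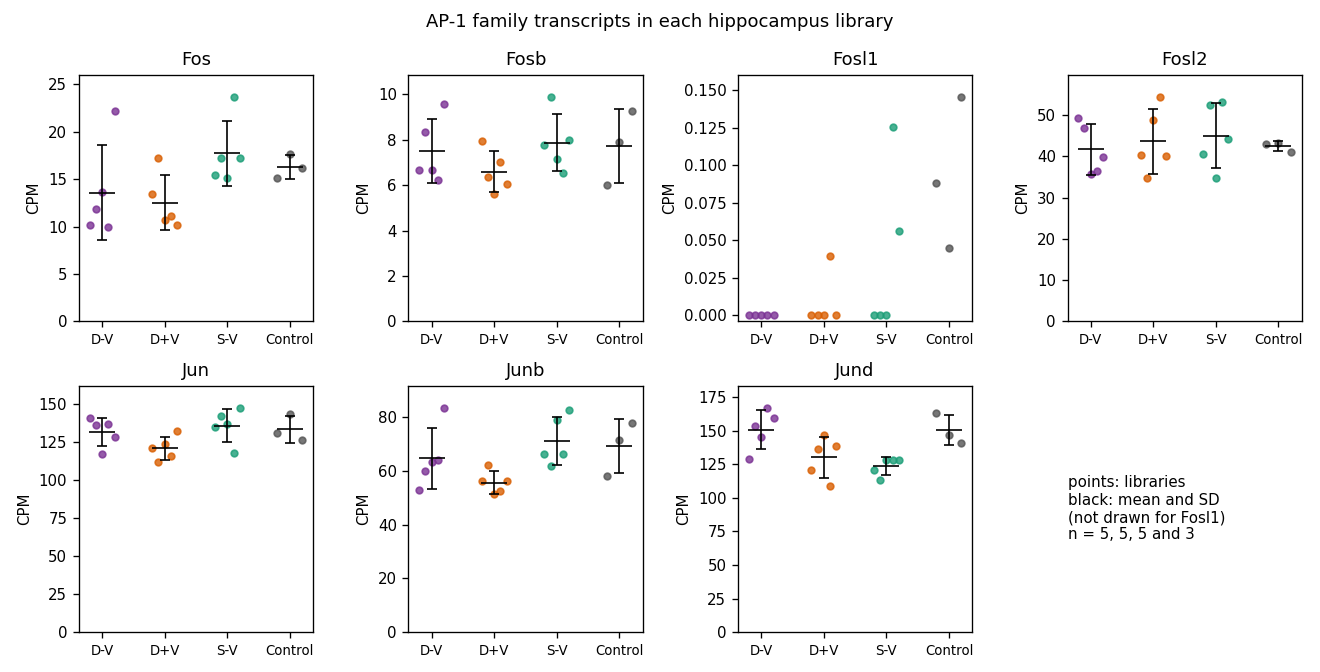
CPM of each of the 7 genes (vertical axes, starting at or just under 0) in every library of the D-V, D+V, S-V and Control groups; black bars give the mean and SD. The S-V points for Jund, from 114 to 128.5 CPM, sit below all Control points, and the D+V points for Junb cluster at 51.6 to 62.2 CPM.

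Summed over the 7 genes, AP-1 RNA came to 410 ± 24.6 CPM in D-V, 370 ± 15.9 in D+V and 401 ± 15.8 in S-V (SD, n = 5 each), and to 420 ± 9.76 in Control (SD, n = 3). The 5 D+V libraries, at 349.7 to 387.5 CPM, were all below the 3 controls, at 412.1 to 430.8 CPM. Of all genes tested, 3.96% were lower in D+V than in Control without overlap, but this share is for single genes. For sums of 7 genes no such share was worked out, so how common this separation is was not tested. Jund and Jun supply most of this sum, so it follows them more than Fos, and with the GC and length trends of each library removed their log2 fold changes in D+V against Control were −0.018 for Jund and −0.030 for Jun.

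Differences were tested with edgeR's quasi-likelihood test over 14763 genes in a single fit of the 18 libraries, with p-values adjusted by the Benjamini-Hochberg method and a gene called at an adjusted p under 0.05. Of the 7 members, 6 passed the filter on low counts, Fosl1 being the exception. In none of the comparisons was a member called. The comparisons with Control share the same 3 control libraries.

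The comparison of D-V with Control asks what the Coriolis condition did to AP-1 transcripts. edgeR called 0 of 6 members, against 0% of all genes, and 0 members had an unadjusted p under 0.05, against 6.2% of all genes (DESeq2 also called 0 members against 0.0203% of all genes, and limma voom 0 against 0%). Fos was at a log2 fold change of −0.27 (SE 0.22, 95% interval −0.74 to 0.20, adjusted p 0.869 with edgeR). With single libraries left out, Fos ran from −0.51 to −0.18. The −0.51 was without D-V replicate 5, the highest Fos library of the group (unadjusted edgeR p 0.00934, adjusted p 0.758). That library stands out by its Fos level itself, so this p is no separate test. Of 17 alternatives, 1 had an unadjusted p under 0.05 for Fos. Jund was at 0.0037 (interval −0.19 to 0.20) and Jun at −0.017 (interval −0.18 to 0.14), the narrowest intervals of the family. Junb was at −0.099, Fosb at −0.044 and Fosl2 at −0.025.

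In D+V against Control, the bidirectional rotation with vision, edgeR called 0 of 6 members while 0.908% of all genes were called (134 genes, or 5 with replicate number as a block). Leaving out Control replicate 1 or 2 took the 134 to 0, Control replicate 3 to 375, D+V replicate 1 to 1288, and D+V replicates 3, 4 and 5 to 23, 44 and 24. Junb and Jund, 2 of 6 members, were lower at an unadjusted p under 0.05, where 7.02% of all genes were lower at that threshold and 17.9% passed it in either direction. Junb averaged 55.8 ± 4.16 CPM in D+V (SD, n = 5) and 69.3 ± 10.1 in Control (SD, n = 3), a log2 fold change of −0.31 (SE 0.13, edgeR p 0.0222, adjusted p 0.198). Jund averaged 130.3 ± 15.4 CPM in D+V (SD, n = 5) and 150.5 ± 11.3 in Control (SD, n = 3), at −0.21 (SE 0.092, edgeR p 0.0344, adjusted p 0.238).

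Fos was at −0.38 in that comparison (SE 0.22, interval −0.84 to 0.088, edgeR adjusted p 0.388), Fosb at −0.22, Jun at −0.14 and Fosl2 at 0.040. With each library's trends of counts on GC content and transcript length removed, Junb came to −0.13 and Jund to −0.018, while Fos was at −0.30. Without the 5 Ttr-rich libraries, a choice made after the data were seen, Junb was at −0.36, Jund at −0.23 and Fos at −0.52. With those trends removed, neither Junb (edgeR p 0.304) nor Jund (p 0.834) kept an unadjusted p under 0.05. With replicate number as a block, Junb was at −0.35 (edgeR p 0.00641, adjusted p 0.153), Jund at −0.23 and Fos at −0.43. In these settings 0 members were called, nor were any by DESeq2 (5.14% of all genes) or limma voom (12.7%). DESeq2 gave Fosb no adjusted p here, so it could not be called by that tool.

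For S-V against Control, unidirectional rotation without vision, edgeR called 0 of 6 members and 0% of all genes. Jund, 1 of 6 members, was lower at an unadjusted p under 0.05, as were 6.12% of all genes (13.7% in either direction). Jund averaged 124 ± 6.51 CPM in S-V (SD, n = 5) and 150.5 ± 11.3 in Control (SD, n = 3), a log2 fold change of −0.28 (SE 0.092, 95% interval −0.48 to −0.091, edgeR p 0.00606, adjusted p 0.2004). Removing the GC and length trends left it at −0.16 (edgeR p 0.0767), and leaving out the Ttr-rich libraries at −0.26. Of the activity-induced members, Fos was at 0.12 (interval −0.35 to 0.59), Fosb at 0.026 and Junb at 0.041 (interval −0.22 to 0.30). Fosl2 was at 0.082 and Jun at 0.025. DESeq2 called 0 members against 1.44% of all genes, and limma voom 0 against 2.15%. DESeq2 gave Fos and Fosb no adjusted p in this comparison, so they could not be called by it.

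Between the rotated groups, D-V against S-V sets bidirectional against unidirectional rotation, both without vision. Jund was again the member at an unadjusted p under 0.05 (1 of 6 members, against 6.44% of all genes), at a log2 fold change of 0.29 (SE 0.080, interval 0.12 to 0.45, edgeR p 0.00202, adjusted p 0.641). With the GC and length trends removed it was at 0.19, and without the Ttr-rich libraries at 0.23. Fos was at −0.39 (SE 0.20, edgeR adjusted p 0.767). With single libraries left out it ran from −0.64, without D-V replicate 5, to −0.27. It was −0.13 without the Ttr-rich libraries, which include the highest S-V library for this gene. Junb was at −0.14, Fosl2 at −0.11, Fosb at −0.071 and Jun at −0.043. edgeR called 0 members and 0% of all genes here, DESeq2 0 members and 0.0745% of all genes, and limma voom 0 and 0%.

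Vision was the difference in D-V against D+V, both bidirectional. Here too 1 of 6 members, Jund, had an unadjusted p under 0.05, against 13.7% of all genes, and edgeR called 0 members and 0% of all genes. Mean Jund was 151 ± 14.5 CPM in D-V against 130.3 ± 15.4 CPM in D+V (SD, n = 5 each), at 0.21 (SE 0.080, edgeR p 0.0156, adjusted p 0.250), and at 0.048 (edgeR p 0.522) with the GC and length trends removed. Without the 5 Ttr-rich libraries, 0 of 6 members had an unadjusted edgeR p under 0.05, and the smallest adjusted p was 0.927. Over all genes, 773 of 14630 then passed that threshold, where 2023 of 14763 did with all libraries. Junb was at 0.21 (SE 0.11), Fosb at 0.18 and Jun at 0.13. Fos was at 0.11 and turned to −0.15 without D-V replicate 5. Fosl2 was at −0.065. DESeq2 called 0 members against 1.88% of all genes, and limma voom 0 against 5.55%.

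The groups D+V and S-V differ in both direction and vision, and 3 of 6 members were lower in D+V at an unadjusted p under 0.05, against 4.79% of all genes (13% in either direction). Junb averaged 55.8 ± 4.16 CPM in D+V and 71.3 ± 9.03 in S-V (SD, n = 5 each), a log2 fold change of −0.35 (SE 0.11, interval −0.58 to −0.12, edgeR p 0.00461, adjusted p 0.234). Fos averaged 12.5 ± 2.90 CPM in D+V and 17.8 ± 3.45 in S-V (SD, n = 5 each), at −0.50 (SE 0.20, edgeR adjusted p 0.313). Jun was at −0.17 (SE 0.067, edgeR adjusted p 0.313), Fosb at −0.25, Fosl2 at −0.042 and Jund at 0.074. edgeR called 0 members and 0% of all genes, and DESeq2 0 members and 1% of all genes. By limma voom, Junb (adjusted p 0.0335) and Fos (adjusted p 0.0498) were called, 2 of 6 members, where the same test called 13.2% of all genes. With the GC and length trends removed, Junb was at −0.30, Fos at −0.44 and both kept an unadjusted p under 0.05, while Jun was at −0.16 and did not (edgeR p 0.0574). When the 3 rotated groups were averaged and set against Control, the smallest edgeR adjusted p for any member was 0.386, for Jund at −0.16, with 0 members and 0% of all genes called and 0 members at an unadjusted p under 0.05 (13.1% of all genes).

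**Figure D2:**
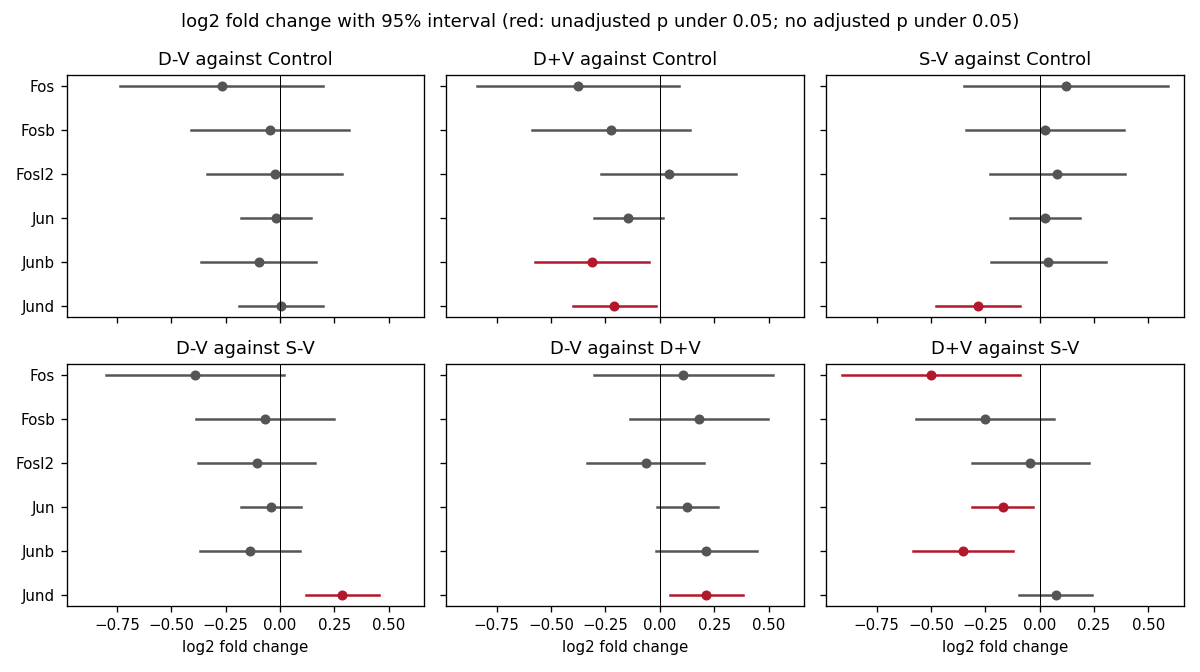
Log2 fold change (horizontal axis) and 95% interval of the 6 tested members in 6 comparisons, red where the unadjusted edgeR p was under 0.05. Jund is red in 4 panels, Junb in 2, and Fos and Jun in D+V against S-V, while the smallest adjusted p in the panels was 0.198.

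**Figure D3:**
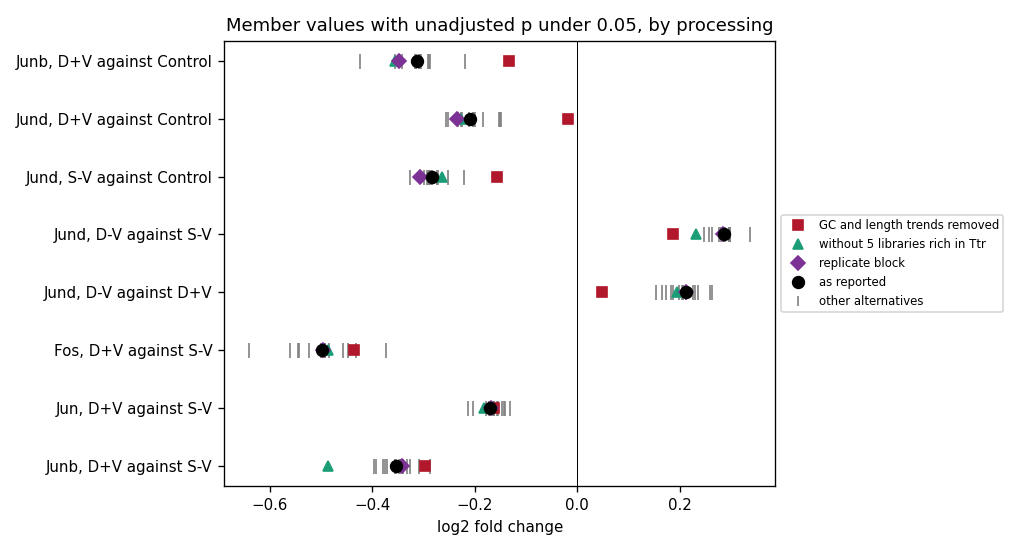
The 8 member values with an unadjusted p under 0.05 (black, log2 fold change) beside the same value under each alternative processing. Removing GC and length trends (red squares) brought Jund in D+V against Control to −0.018 and in D-V against D+V to 0.048, while Junb in D+V against S-V stayed at −0.30.

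Among the members, Fos and Junb varied together across the 18 libraries. Their log2 CPM had a Pearson r of 0.685 (permutation p 0.0021, adjusted over 15 pairs 0.0315) and a Spearman rho of 0.69 (permutation p 0.00224, adjusted 0.0336), and r was 0.802 without the 2 libraries farthest from the median Fos level. With the group means removed, r was 0.552 (permutation p 0.0492, adjusted 0.246). In that setting 2 pairs were as far from 0 with a negative sign. Fosl2 with Junb was at −0.557 (permutation p 0.0175, adjusted 0.245) and Fos with Jun at −0.546 (permutation p 0.0326, adjusted 0.245). No pair passed the adjustment once group means were removed. Without that removal, Fosb stood at r = 0.553 with Junb and 0.486 with Fos, with adjusted permutation p-values of 0.138 and 0.21. Jund and Fosl2 showed no pair that passed this adjustment, and Jund had r = −0.061 with Fos. TGACG is capitalised above in the promoters of Fos, Fosb and Junb, and it occurs in 17.8% of promoter windows. Whether it bears on these correlations was not tested.

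The genes whose pattern was most like each member were taken as the 3 highest Pearson r among 13220 genes, over 18 libraries and as a description. For Junb they were Arc (r = 0.883), which encodes a synaptic regulator of glutamate receptors made on demand, Meis3 (0.866), a homeobox factor, and Nr4a1 (0.853), an early-induced nuclear receptor. For Fos they were Git2 (0.752), Apold1 (0.74), an early gene of endothelium, and Hkdc1 (0.74). Fosb was nearest to Ezh2 (0.817), Pdf (0.766) and Slc25a51 (0.744). Fosl2 was nearest to C2cd5 (0.832), Elavl4 (0.82), a neuronal RNA-binding protein, and Cntn4 (0.812), an axonal adhesion molecule. For Jun they were Ube2q1 (0.768), Ssrp1 (0.765) and Bcas2 (0.74), and for Jund they were Borcs6 (0.856), Scap (0.843), the sterol sensor of the SREBP pathway, and Tab1 (0.83). With group means removed, r for these genes ran from 0.569 (Apold1 with Fos) to 0.863 (Meis3 with Junb). Each gene was picked as highest among 13220. The r that unrelated genes reach under such a pick was not worked out.

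Arc was at 131, 130.5, 144, 122 and 224 CPM in D-V, 135, 169, 91.8, 127 and 115 in D+V, 190, 139.5, 205, 145 and 198 in S-V, and 116, 163 and 220 in Control. The highest Junb libraries of each group, D-V replicate 5, D+V replicate 2, S-V replicate 5 and Control replicate 3, were the highest or second highest of their group for Arc. Over a list of 26 early genes induced with Fos, the median r was 0.501 for Junb (13 genes over 0.5), 0.427 for Fos (10 genes) and 0.268 for Fosb (6 genes). It was 0.141 for Jun, −0.0081 for Jund and −0.095 for Fosl2. With group means removed the medians were 0.349 for Junb, 0.238 for Fos and 0.179 for Fosb. They were −0.134 for Jun, −0.115 for Jund and −0.167 for Fosl2. No such median was worked out for genes outside the family.

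**Figure D4:**
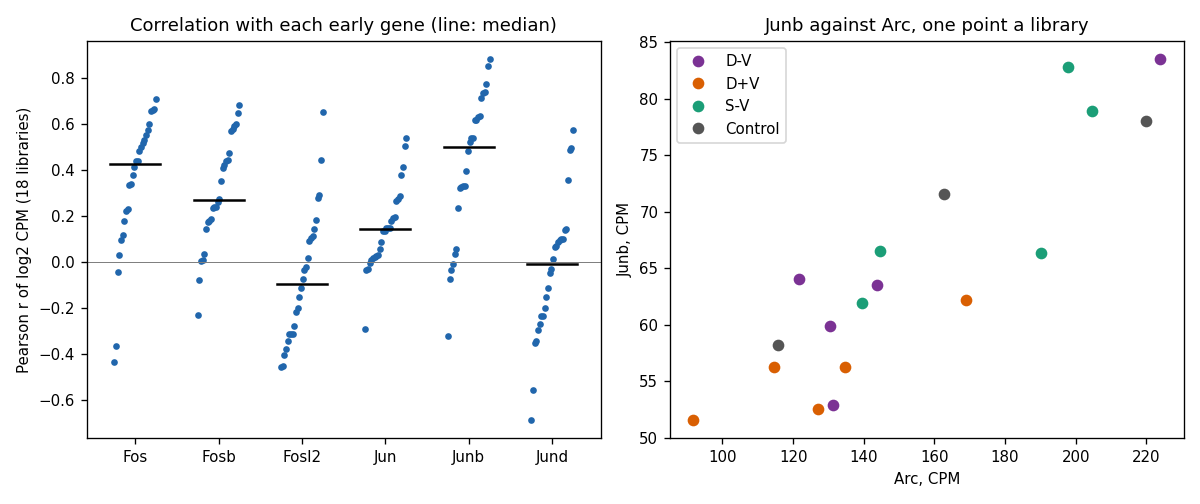
Left, Pearson r of log2 CPM between each member and each of 26 early genes, with the median as a line (0.501 for Junb, −0.0081 for Jund). Right, Junb against Arc in CPM, one point a library, with the D-V replicate 5 library at 83.5 CPM Junb and 224 CPM Arc.

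The genes around AP-1 were read from 5 lists, and in none of the 6 pairwise comparisons was a listed gene called by edgeR. In D-V against Control, S-V against Control and D-V against S-V, DESeq2 and limma voom called none either. In D-V against D+V, DESeq2 called Camk4, Gria2 and Vgf (1.88% of all genes), and limma voom these and 4 others (5.55%). Limma voom called 5 upstream regulators, 5 target genes, 3 bZIP partners and 2 turnover regulators in D+V against S-V (13.2% of all genes). Camk2a was called there both as an upstream regulator and as a target gene. Directions and medians within the lists came from the main edgeR fit alone and were not recounted with GC and length trends removed. In D+V against Control that removal took the genes at an unadjusted edgeR p under 0.05 from 2638 of 14763 to 1036 of 14743. The early genes co-induced with Fos were lower in D+V against Control for 23 of 26 genes, with a median log2 fold change of −0.287, against 50.48% of all genes and a median of −0.002. Of the 26, 9 were lower at an unadjusted p under 0.05, against 7.02% of all genes. DESeq2 called 0 of them against 5.14% of all genes, and limma voom 4 (Egr2, Atf3, Klf2 and Btg2) against 12.7%. Egr2, a zinc finger factor of the same response, was at −0.99 (SE 0.30, edgeR adjusted p 0.099), and Npas4, an early factor specific to neurons, at −0.67 (SE 0.22, adjusted p 0.122). Against S-V, D+V was lower for 25 of 26 genes (median −0.216) and for 51.09% of all genes. At an unadjusted p under 0.05, 9 of the 26 were lower, against 4.79% of all genes. DESeq2 called 2 of them against 1% of all genes and limma voom 6 against 13.2%. Klf2 was at −0.73 (SE 0.17, edgeR adjusted p 0.175) and Egr2 at −0.96. In D-V against D+V 24 of 26 were positive (median 0.115), as were 7718 of all 14763 genes, with Ccn2 at 0.74 and Gadd45b at 0.25. In D-V against Control 18 of 26 were negative (median −0.140, 48.64% of all genes), with Egr2 at −0.69 and Klf2 at −0.40. In S-V against Control 12 of 26 were (median 0.004, 49.39% of all genes), with Npas4 at −0.53 and Homer1 at 0.23. In D-V against S-V 18 of 26 were negative (median −0.097, 50.05% of all genes), led by Klf2 at −0.60 and Egr2 at −0.66.

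Of the 35 tested regulators upstream of Fos and Jun, 18 were negative in D+V against Control and the median was −0.007, with 2 lower and 6 higher at an unadjusted p under 0.05, against 7.02% and 10.9% of all genes. DESeq2 called 4 of them against 5.14% of all genes, and limma voom 7 against 12.7%. Camk4, a kinase that phosphorylates CREB, was at 0.65 (SE 0.16, edgeR adjusted p 0.0572), averaging 26.2 ± 7.23 CPM in D+V (SD, n = 5) and 16.6 ± 1.04 in Control (SD, n = 3). Elk1, an SRF partner at the Fos promoter, was at −0.32 (SE 0.089, edgeR adjusted p 0.074) in D+V and at −0.23 in D-V, each against Control. Rps6ka5, a kinase that acts on CREB and histone H3, was at 0.24 in D-V and 0.29 in S-V, each against Control, and Rps6ka2, a related kinase, was at −0.28 in S-V. Between rotated groups, Camk4 was at −0.51 in D-V against D+V and 0.62 in D+V against S-V, where DESeq2 called it and Elk3 (1% of all genes). Elk3, another SRF partner, was at −0.21 in D-V against S-V, 0.21 in D-V against D+V and −0.42 in D+V against S-V, and Map2k2, an ERK pathway kinase, at 0.12 in D-V against S-V. Medians of this list in the other 5 comparisons ran from −0.023 to 0.033.

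The 24 tested bZIP partners, which can pair with AP-1 proteins, were evenly split in sign in D+V against Control, with 12 negative. At an unadjusted p under 0.05, 3 were lower and 3 higher, against 7.02% and 10.9% of all genes. DESeq2 called 3 of them and limma voom 5, in the comparison in which these tools called 5.14% and 12.7% of all genes. Maf, a factor that dimerises with Fos and Jun, was at 0.31 in D-V, 0.34 in D+V and 0.29 in S-V, each against Control, with edgeR adjusted p-values of 0.667, 0.0719 and 0.196. It averaged 19.8 ± 1.39 CPM in D-V, 20.2 ± 2.10 in D+V and 19.5 ± 1.31 in S-V (SD, n = 5 each) and 15.9 ± 0.844 in Control (SD, n = 3). Atf2, which pairs with Jun, was at 0.29 in D+V and 0.16 in D-V, and Nfe2l2, the oxidative stress factor NRF2, at 0.41 in S-V, each against Control. Between rotated groups, Atf4, the integrated stress response factor, was at 0.18 in D-V against D+V and −0.22 in D+V against S-V. Nfe2l2 was at −0.32 in D+V against S-V, Atf6b at 0.18 in D-V against D+V, and Nfe2l1 at 0.12 and Mafg at 0.14 in D-V against S-V.

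Of 20 regulators of AP-1 protein and mRNA turnover, 16 were positive in D-V against Control (median 0.095), 13 in D+V (0.062) and 14 in S-V (0.103). Of all 14763 genes tested, 7582, 7310 and 7471 were positive, in that order, with medians of 0.005, −0.002 and 0.002. In D+V against Control 1 was lower and 5 were higher at an unadjusted p under 0.05, where 7.02% of all genes were lower and 10.9% higher. DESeq2 called 2 (5.14% of all genes) and limma voom 3 (12.7%). Ppp2ca, a catalytic subunit of protein phosphatase 2A, was at 0.15 in D-V and 0.17 in S-V, and Cnot7, a deadenylase of the CCR4-NOT complex, at 0.16 in D-V and 0.22 in S-V, each against Control. Gsk3b, a kinase that marks Jun for degradation, was at 0.39 (SE 0.11, edgeR adjusted p 0.0844) and the ubiquitin ligase Ubr1 at 0.31 in D+V against Control. Gsk3b was also at −0.24 in D-V against D+V and 0.26 in D+V against S-V. Dusp1, a phosphatase that switches off MAP kinases, was at −0.32 in D+V against S-V. Khsrp, an RNA-binding protein of AU-rich mRNA decay, was at 0.11 in D-V against S-V and 0.14 in D-V against D+V, and Zfp36l2, another such protein, at 0.22 in D-V against S-V.

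Among 28 tested AP-1 target genes, 14 were negative in D-V against Control, 16 in D+V and 16 in S-V. The shares of all genes were 48.64%, 50.48% and 49.39%. In D+V against Control 5 were lower and 2 higher at an unadjusted p under 0.05, against 7.02% and 10.9% of all genes. DESeq2 called 0 (5.14% of all genes) and limma voom 4 (12.7%). Pdyn, which encodes the precursor of dynorphin, was at −0.40 in D-V (edgeR adjusted p 0.673) and −0.36 in D+V (adjusted p 0.179), each against Control. Penk, the enkephalin precursor gene, was at −0.59 in D+V against Control (SE 0.22, edgeR adjusted p 0.174). Th, the enzyme of catecholamine synthesis, was at −1.01 in D-V and −1.02 in S-V against Control, but at 0.798 ± 0.511 CPM in D-V, 0.794 ± 0.226 in S-V (SD, n = 5 each) and 1.62 ± 0.945 in Control (SD, n = 3) it was weakly expressed. Sirt1, a deacetylase, was at 0.32 in S-V against Control. Gria2, the AMPA receptor subunit GluA2, was at −0.48 in D-V against D+V (SE 0.096, edgeR adjusted p 0.0901). It was at 0.39 in D+V against S-V, where DESeq2 called it (1% of all genes). Vgf, a neuropeptide precursor, was at 0.25 in D-V against S-V and 0.32 in D-V against D+V, Cd44 at 0.51 in D-V against S-V and Camk2a at 0.20 in D+V against S-V.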

How the data were processed

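Per the labels' protocols, mRNA was enriched by its poly(A) tail and sequenced on an Illumina NovaSeq. The deposited values are estimated counts per gene, 2868 genes having values that are not whole, per the file headers and the values. The submitters' processing notes name HISAT2, DESeq2, StringTie 1.3.1 and Bowtie2 2.2.8 without roles, and the sources used here give no genome build, annotation or strand setting. Symbols matched 21973 of 22063 identifiers, and the 90 others held 0.056% of counts. Lengths, GC content and overlaps came from GENCODE M21 (GRCm38), and promoter sequences from RefSeq (GRCm38.p6).

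Counts were rounded, filtered with filterByExpr (14763 genes, 99.97% of counts), TMM-scaled (factors 0.967 to 1.03) and tested with edgeR 4.0.16 in R 4.3.3, with 4 group means in 1 fit (common biological variation 15.4%). DESeq2 1.42.0, limma 3.58.1 voom, other scalings and filters, only the groups compared, a replicate block, removal of GC and length trends, and leaving out each library were alternatives. Fits were tested on simulated data. Correlations used 100000 permutations.

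Members and lists were chosen with earlier results of these data known. All 7 members are named, with the 2 smallest p in each list and comparison, called or not, and 3 genes most like each member among those averaging at least 1 CPM. Leaving out the 5 libraries with Ttr over 10 times the median was chosen after seeing the data. Samples sharing a number in the labels had deviations correlated at −0.452 to 0.34 over 24 pairs. D+V with Control was the comparison in which all 3 pairs exceeded 0.1 (0.168, 0.107 and 0.155), so there the blocked values are given beside those of the fit without the block, which was kept as the main one. No label says what the numbers share.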

Additional observations from a re-analysis of the deposited data

Results flagged for a closer look

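Of 20 groups of 5 libraries examined, 2 held a library far from the others. For levels that are not mostly 0, chance sets apart about 1 group in 20. Fos in S-V replicate 4 was at 23.65 CPM, while the other 4 S-V libraries lay between 15.2 and 17.3 CPM. Its gap to the nearest library was 0.751 of the group's range, above the critical value of 0.71. That library was also rich in the choroid plexus transcript Ttr, at 3525 CPM, and the part of this in its Fos level was not tested. Without it, Fos in D+V against S-V was at a log2 fold change of −0.37. Fosl1 in D+V replicate 4 was at 0.03941 CPM, or 1.1 counts, where the other 4 D+V libraries had 0. With the others all at 0, any count makes the gap 1.0 of the range. This flag was therefore fixed in advance and cannot be set against that rate.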

How the results depend on the processing

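Of 810 member values recomputed under the alternatives, 760 kept their direction without a call, 2 were called and 48 changed sign, all of these in 17 results whose reported log2 fold change was within 0.15 of 0. The 2 calls were in D+V against S-V under limma voom. Voom also gave Jun at −0.0091 in S-V against Control and Fosl2 at 0.013 in D+V against S-V. The replicate block changed no member's call and gave −0.0070 for Junb in S-V against Control. Jund in D-V against Control was at −0.022 with that block, −0.0021 with a filter at 1 CPM and at −0.0040 with only the groups compared. Removing GC and length trends gave Fosb 0.0029, Fosl2 0.017 and Jun 0.037 in D-V against Control, and Fosb 0.0086 and Jun 0.047 for the rotated groups averaged. Without the 5 Ttr-rich libraries, S-V against Control gave Fosb −0.015, Fos −0.032 and Fosl2 −0.092. D-V against Control then gave Fosb 0.081, Fosl2 0.097, Jun 0.016 and Jund −0.031, D-V against S-V gave Fosb 0.095 and Fosl2 0.19, and D+V against S-V gave Fosl2 0.21. With single libraries left out, values in S-V against Control ran from −0.125 to 0.178 for Fosb, −0.014 to 0.079 for Jun and −0.070 to 0.135 for Junb. In D+V against Control Fosl2 ran from −0.054 to 0.114. In D-V against Control Fosb ran from −0.196 to 0.107, Fosl2 from −0.094 to 0.025, Jun from −0.057 to 0.036 and Jund from −0.040 to 0.065. For the mean of the rotated groups Fosb ran from −0.232 to 0.070 and Jun from −0.085 to 0.0081. In D-V against S-V Fosb ran from −0.176 to 0.025, in D-V against D+V Fos from −0.145 to 0.2495 and Fosl2 from −0.139 to 0.029, and in D+V against S-V Fosl2 from −0.136 to 0.032. The cause of these shifts was not tested.

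Over all genes, the 134 calls in D+V against Control became 60 without a filter, 0 with only the groups compared, 5 with the replicate block, 759 with DESeq2, 1882 with voom, 0 with GC and length trends removed, 1 without the Ttr-rich libraries, and 0 to 1288 with single libraries left out. Where edgeR called 0 genes, DESeq2 and voom called 3 and 0 in D-V against Control, 212 and 318 in S-V against Control, 11 and 0 between D-V and S-V, 277 and 819 in D-V against D+V, 148 and 1943 in D+V against S-V, and 259 and 381 for the mean of the rotated groups. Without D+V replicate 1 edgeR called 1230 genes in D-V against D+V and 1455 in D+V against S-V, and without D+V replicate 4 it called 70 in D-V against D+V. Depth limits Fosl1 in particular, which had 10.65 counts over 18 libraries.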
